A study of Mus musculus with 12 samples.

Results

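The 8 genes described here lie near Sirt3 on mouse chromosome 7. They are Psmd13, Ric8a, Bet1l, Rnh1, Sigirr, Pkp3, B4galnt4 and 9330101J02Rik, chosen by name out of 35275 genes in the deposited table. The rule uses position and no measured value, but the names were picked with earlier results of these data known and are not all the genes of the region, so a call of one of them, 9330101J02Rik above all, is a description of a chosen gene. 7 of them had enough reads to be tested, and Pkp3, with 43 reads in all 12 libraries together, did not. Ric8a is listed in the table under its older symbol Ric8 and was matched by its identifier, ENSMUSG00000025485.

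Poly(A) RNA of brain cortex was sequenced at an age of 8 months, with 3 libraries for each of 4 groups. WT mice carried neither change, and Sirt3-/- mice lacked Sirt3 in every cell. APP/PS1 mice carried 2 transgenes, 1 for APP and 1 for mutant presenilin 1 of human origin. APP/PS1/Sirt3-/- mice are described as carrying the transgenes and lacking Sirt3, which the reads of 2 of the 3 libraries go against. No agent was given. The study obtained WT and Sirt3-/- mice in both the 129 Sv and the C57BL/6 background and APP/PS1 mice in C57BL/6, and the sources used here do not say from which background the RNA came. A targeted allele travels with the chromosome sequence around it, so for genes next to Sirt3 the loss of Sirt3, the sequence linked to the targeted allele and the strain background cannot be told apart. The legends read as separate mice for each sample, but the labels tie no library to a mouse, so p-values measure the spread between these libraries, which may be partly technical.

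SIRT3 is the main deacetylase of mitochondria, and its loss is used as a model of metabolic syndrome. Sirt3 and Psmd13 are divergent neighbours: they are read in opposite directions from a shared promoter region, an arrangement common among housekeeping genes in mammals. The members do unrelated work in the cell, and what they share is their place on the chromosome. Psmd13 encodes a subunit of the 19S lid that receives ubiquitin-tagged proteins for the proteasome. Ric8a encodes a chaperone and exchange factor of G protein alpha subunits, and Bet1l encodes a SNARE protein of membrane traffic within the Golgi. B4galnt4 encodes an enzyme that adds N-acetylgalactosamine to protein-linked sugars, Rnh1 encodes the inhibitor that binds secreted ribonucleases of the RNase A family, and Sigirr encodes a receptor that dampens interleukin 1 and Toll-like receptor signals. Pkp3 encodes a plakophilin of desmosomes, the junctions of epithelia. 9330101J02Rik is an older name for sequence that is now part of Cfap46, a gene named for cilia and flagella.

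The promoter windows of Psmd13 and Sirt3 are printed because they overlap on opposite strands, and that of Cfap46 because 9330101J02Rik was the member that differed most between groups. Each window runs from 250 bases before to 50 bases after a RefSeq start on GRCm38.p6. The Psmd13 window is chr7:140882144-140882443 on the plus strand, the Sirt3 window chr7:140882260-140882559 on the minus strand, and the Cfap46 window chr7:139683766-139684065 on the minus strand. Capitals mark the 184 bases that the Psmd13 and Sirt3 windows share, from 140882260 to 140882443, each printed 5′ to 3′ on its own gene's strand.
Psmd13: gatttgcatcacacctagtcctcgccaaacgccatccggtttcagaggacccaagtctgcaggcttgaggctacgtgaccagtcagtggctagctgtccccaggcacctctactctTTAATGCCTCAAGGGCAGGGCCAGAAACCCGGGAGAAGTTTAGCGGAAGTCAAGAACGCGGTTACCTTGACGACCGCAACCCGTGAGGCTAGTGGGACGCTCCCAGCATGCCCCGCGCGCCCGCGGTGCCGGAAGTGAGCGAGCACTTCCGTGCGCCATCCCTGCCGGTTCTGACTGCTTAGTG
Sirt3: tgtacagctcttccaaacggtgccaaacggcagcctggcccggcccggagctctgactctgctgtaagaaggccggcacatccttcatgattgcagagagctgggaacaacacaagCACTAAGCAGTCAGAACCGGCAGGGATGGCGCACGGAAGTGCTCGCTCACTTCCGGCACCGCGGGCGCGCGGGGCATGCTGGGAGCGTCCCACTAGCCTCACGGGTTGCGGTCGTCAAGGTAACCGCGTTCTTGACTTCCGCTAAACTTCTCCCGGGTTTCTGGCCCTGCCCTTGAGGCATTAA
Cfap46: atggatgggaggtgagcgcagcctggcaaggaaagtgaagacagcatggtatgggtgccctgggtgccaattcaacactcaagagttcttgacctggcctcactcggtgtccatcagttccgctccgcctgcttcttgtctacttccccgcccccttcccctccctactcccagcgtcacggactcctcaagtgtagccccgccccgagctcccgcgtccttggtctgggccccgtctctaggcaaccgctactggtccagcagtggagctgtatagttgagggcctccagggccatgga
The starts of Psmd13 and Sirt3 behind these windows are 85 bases apart. RefSeq lists a second Sirt3 start at 140881869, within the gene, whose window (chr7:140881820-140882119) holds 24 CpG and 0 copies of CCGGAAG and does not overlap that of Psmd13. The shared bases hold 18 CpG dinucleotides and 1 copy of CCGGAAG, a sequence recognised by ETS family factors, counted on both strands. Shorter or variant forms of that sequence were not counted. CCGGAAG was found in 8.86% of all 32851 mouse promoter windows of this length. The whole Psmd13 window holds 22 CpG, the Sirt3 window 23 and the Cfap46 window 13, beside a median of 7 over all windows. TATAAA, present in 13.6% of windows, was found in neither the Psmd13, the Sirt3 nor the Cfap46 window, and CCGGAAG was not found in that of Cfap46. These matches describe letters, not binding. Windows were looked up for 6 of the 8 members, 9330101J02Rik under the name Cfap46, and all 6 had one. Sigirr and Pkp3 were not looked up.

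By the deposited gene models, which are on GRCm38, Sirt3 (ENSMUSG00000025486, minus strand) spans chr7:140863670-140882309. Psmd13 (ENSMUSG00000025487, plus strand, chr7:140881968-140898643) overlaps the Sirt3 model by 342 bases at its own start. Ric8a (plus strand, chr7:140856957-140863730) overlaps the other end of Sirt3 by 61 bases. The sources used here do not say whether reads were counted by strand, so reads within these overlaps cannot be assigned with certainty to either gene. Bet1l (ENSMUSG00000025484, minus strand, chr7:140853384-140856383) lies 7.29 kb from Sirt3. B4galnt4 (ENSMUSG00000055629, plus strand, chr7:141061274-141072119) lies 179 kb away and Pkp3 (ENSMUSG00000054065, plus strand, chr7:141078218-141090510) 196 kb away. Sigirr (ENSMUSG00000025494, minus strand, chr7:141091175-141100546) lies at 209 kb and Rnh1 (ENSMUSG00000038650, minus strand, chr7:141160328-141172851) at 278 kb. These 7 are among 31 genes with reads within 278 kb of Sirt3. 9330101J02Rik (ENSMUSG00000049571, minus strand, chr7:139638778-139683817) is much farther off, at 1.18 Mb, and 93 genes with reads lie no farther from Sirt3 than it does. All 8 are annotated as protein-coding.

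**Figure D1:**
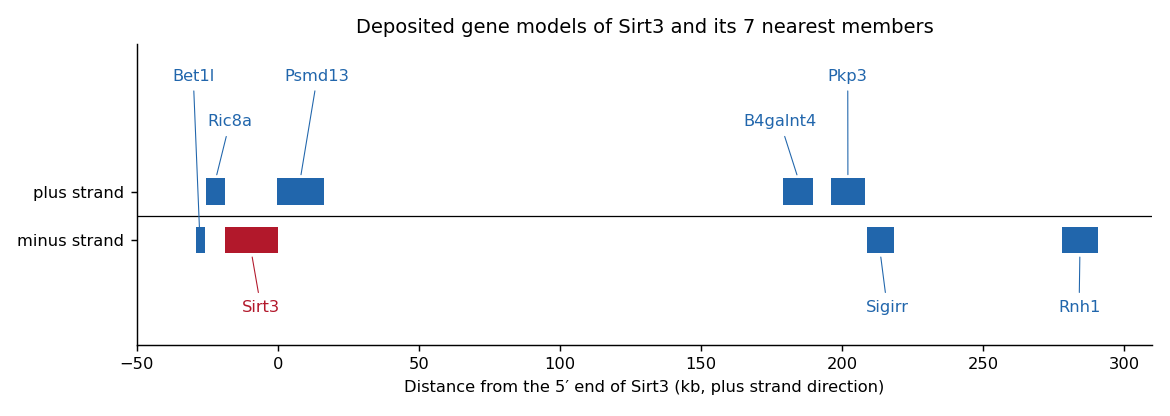
Gene bodies of Sirt3 (red) and the 7 nearest members (blue) drawn to scale as distance from the 5′ end of Sirt3 in kb, plus strand above and minus strand below the line. Ric8a and Psmd13 overlap Sirt3, and Bet1l lies 7.29 kb from it. B4galnt4, Pkp3, Sigirr and Rnh1 form a second group 179 kb to 278 kb away, while 9330101J02Rik, 1.18 Mb to the left, is outside the drawing.

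Sirt3 itself was measured first, as a check of the labels. Its level was 60.8, 63.6 and 64.5 CPM (each library's reads on a common scale, normalised by TMM) in WT and 64.3, 59.0 and 60.7 CPM in APP/PS1. In the libraries labelled Sirt3-/- it was 0.186, 0.467 and 0.443 CPM. Under the label APP/PS1/Sirt3-/- it was 28.6 CPM in replicate 1, 0.211 CPM in replicate 2 and 27.7 CPM in replicate 4, so replicates 1 and 4 held Sirt3 reads at 45.4% and 44.0% of the WT mean and go against their label. App was 3614, 3794 and 1623 CPM in the libraries labelled APP/PS1, replicates 1, 2 and 4, beside 1755 to 1828 CPM in WT, so replicate 4 also goes against its label. In the fit of all 12 libraries, whose groups share 1 estimate of spread, Sirt3 itself had an adjusted p of 0.0745 (edgeR) in Sirt3-/- against WT, and 6.21e-08 (edgeR) with only these 2 groups fitted. The tests below were repeated without the first 2 of these libraries and without all 3.

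The 12 libraries held between 15251720 and 18644376 reads in genes. The replicate 4 library of each group carried Y-linked reads (101.7 to 114.2 CPM) while all libraries are labelled female. The 8 markers of cortical neurons summed to 2011 to 2441 CPM in WT, 1071 to 2046 CPM in Sirt3-/-, 1556 to 1727 CPM in APP/PS1 and 1288 to 1775 CPM in APP/PS1/Sirt3-/-. The 8 thalamic markers summed to 145.0 to 170.8 CPM in WT, 142.5 to 241.8 CPM in Sirt3-/-, 287.9 to 395.1 CPM in APP/PS1 and 137.8 to 460.3 CPM in APP/PS1/Sirt3-/-. The 8 striatal markers summed to 240.4 to 480.7 CPM in WT and 1291 to 2360 CPM in Sirt3-/-, 358.4 to 951 CPM in APP/PS1 and 212.6 to 1374 CPM in APP/PS1/Sirt3-/-, with none of these markers at 0 in any library. The 8 choroid plexus markers summed to between 13.9 and 1738 CPM in WT alone. The libraries therefore differ in their levels of markers of brain regions, and the part of this in any result below was not tested beyond the fit with region markers as covariates. In bulk RNA, fewer cells of a type and less RNA per cell cannot be told apart.

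Levels of different genes are compared here in FPKM, which corrects for gene length. Psmd13 was the highest member, at a mean of 39.1 FPKM over the 12 libraries (36.3 to 42.5), close to Sirt3 itself, which was 42.3 ± 1.42 FPKM (SD, n = 3) in WT. B4galnt4 followed at 35.7 FPKM (32.1 to 41.3), below Psmd13 in 11 of 12 libraries, so that their ranges overlap. Rnh1 was at 21.5 FPKM (17.8 to 25.9) and Ric8a at 19.2 FPKM (17.7 to 21.6), with Rnh1 higher in 9 of 12 libraries. Bet1l was at 16.5 FPKM (14.4 to 18.9), below Ric8a in all 12 libraries. The other 3 members were far lower. 9330101J02Rik was at 1.94 FPKM (1.08 to 4.11) and Sigirr at 1.00 FPKM (0.673 to 1.52), with 9330101J02Rik higher in 10 of 12 libraries. Pkp3 was at 0.073 FPKM, and its highest library, at 0.18 FPKM, lay below every library of Sigirr.

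The first question is whether genes beside Sirt3 differ where Sirt3 is deleted. Comparing Sirt3-/- with WT, 1 of the 7 members tested, 9330101J02Rik, passed an adjusted p of 0.05 in edgeR, beside 0.294% of all 16673 genes tested. The other 6 had log2 fold changes between -0.14 (Sigirr) and 0.13 (Ric8a), and the lowest adjusted p among them was 0.539 (edgeR). 2 members, Psmd13 and 9330101J02Rik, were higher in all 3 Sirt3-/- libraries than in all 3 WT libraries, which holds for 10.3% of all genes tested. The median log2 fold change of the 7 members was 0.06, and 0.01 without 9330101J02Rik, beside 0.003 over all genes. Comparing APP/PS1/Sirt3-/- with APP/PS1, edgeR called 0 members, beside 0.024% of all genes. In that comparison 1 member, again 9330101J02Rik, had an unadjusted p under 0.05, as 4.86% of genes did, and DESeq2 also called 0 members, beside 0.0272% of genes. The median log2 fold change of the members there was 0.01, and -0.007 without 9330101J02Rik, beside 0.006 over all genes. Both comparisons averaged, edgeR called 9330101J02Rik alone among the members, beside 0.222% of all genes.

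**Figure D2:**
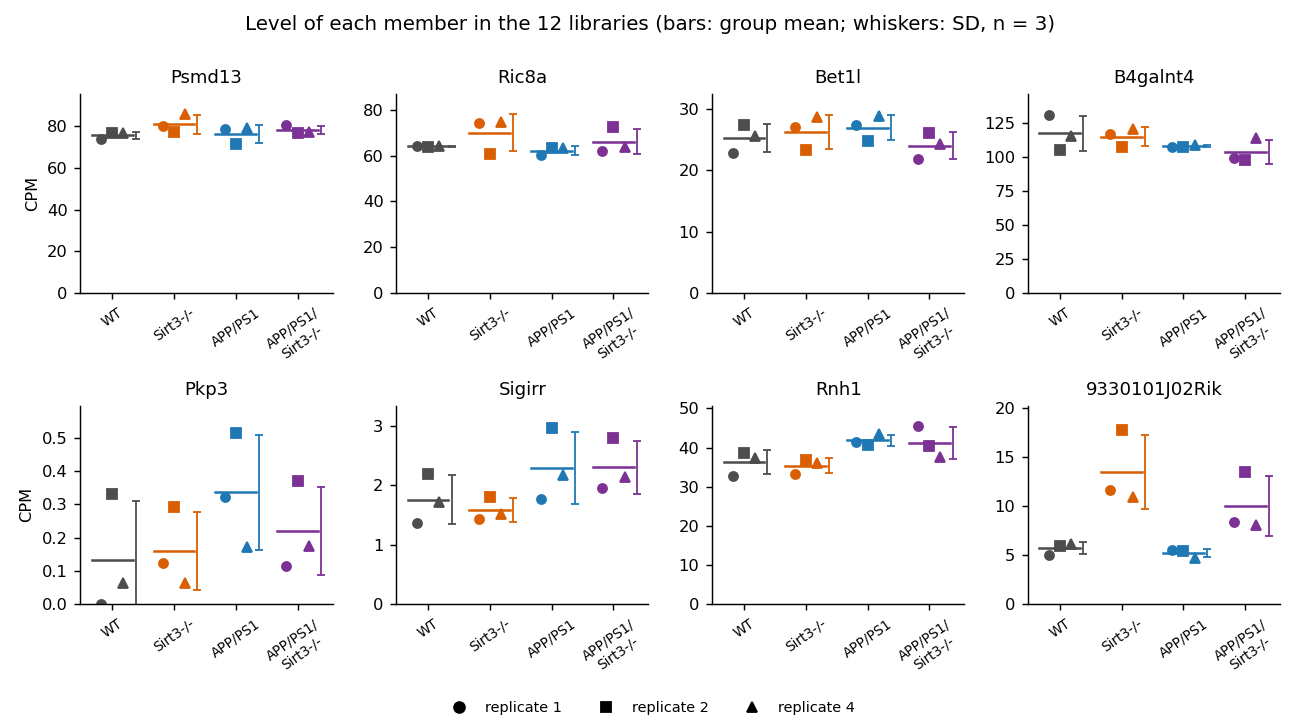
CPM of each member in the 12 libraries (symbols: replicates 1, 2 and 4), with group means as bars and SD as whiskers (n = 3, drawn down to 0 at most). Psmd13, Ric8a, Bet1l, B4galnt4 and Rnh1 lie at similar levels in all 4 groups, and 9330101J02Rik is at 4.68 to 6.16 CPM in WT and APP/PS1 and at 8.04 to 17.7 CPM in the libraries labelled Sirt3-/- and APP/PS1/Sirt3-/-.

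Psmd13, which shares its promoter region with Sirt3, was 73.9, 76.6 and 76.6 CPM in WT and 80.0, 77.1 and 86.0 CPM in Sirt3-/-. The Sirt3-/- libraries were all above the WT libraries, but the nearest pair differed by less than 1 CPM. The fold change was 1.07 (95% interval 0.972 to 1.18), and the adjusted p was 0.539 (edgeR). Psmd13 was 78.8, 71.5 and 79.3 CPM in APP/PS1 and 80.5, 76.7 and 77.4 CPM in APP/PS1/Sirt3-/-, so these groups overlap. That difference was 1.02-fold (95% interval 0.928 to 1.12). In the APP/PS1/Sirt3-/- group, replicate 2, with Sirt3 at 0.211 CPM, had Psmd13 at 76.7 CPM, and replicates 1 and 4, with Sirt3 near 28 CPM, had it at 80.5 and 77.4 CPM. Averaged over both backgrounds, the interval of the fold change of Psmd13 ran from 0.977 to 1.12, so a change beyond these bounds is outside the 95% interval. Psmd13 varied little: its coefficient of variation over the 12 libraries was 4.61%, and 3.14% of the genes tested had a smaller one, beside a median of 13%.

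The other subunits of the proteasome were counted for comparison. Of 17 further genes of the 19S particle, none passed the test in edgeR between Sirt3-/- and WT (2 had an unadjusted p under 0.05), and their median log2 fold change was 0.04. The lowest p in the average over both backgrounds was that of Psmd1, a scaffold subunit, at a log2 fold change of 0.15 (SE 0.05, adjusted p = 0.227, edgeR). Psmd6, Psmd14 and Psmd2 followed, at 0.11, 0.08 and 0.06. Psmd1 rose between APP/PS1/Sirt3-/- and WT, by a log2 fold change of 0.34 (SE 0.07, adjusted p = 0.0375, edgeR), in a comparison that called 1.13% of all genes. That call held in 12 of 24 alternatives and was lost, at adjusted p of 0.0512 to 0.144 (edgeR), without any 1 WT or APP/PS1 library, Sirt3-/- replicate 4, or APP/PS1/Sirt3-/- replicate 1 or 2. It was also lost with the replicate block (0.0501), motile cilia genes as a covariate (0.217) and markers of brain regions as covariates (0.804, all edgeR). Of 14 genes of the 20S core, none passed in Sirt3-/- against WT and 6 had an unadjusted p under 0.05, all higher, beside 13.5% of all genes, with a median log2 fold change of 0.12. In APP/PS1/Sirt3-/- against APP/PS1 the medians of the 19S and 20S lists were -0.02 and -0.01. In APP/PS1 against WT, without Sirt3 deletion, they were 0.12 and 0.15. There 6 genes of each list had an unadjusted p under 0.05 in edgeR, all higher, beside 17% of all genes. In APP/PS1/Sirt3-/- against WT the medians were 0.11 and 0.13, and these comparisons share their WT libraries. The smallest p in the average among core genes belonged to Psma1, Psma5, Psmb2 and Psmb1, with log2 fold changes of 0.11, 0.13, 0.11 and 0.11.

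Ric8a, at the other end of Sirt3, was 64.1, 63.9 and 64.2 CPM in WT and 74.4, 60.6 and 74.9 CPM in Sirt3-/-. Replicate 2 of Sirt3-/- lay below all WT libraries and the other 2 above them. The fold change was 1.09 (95% interval 0.962 to 1.24, adjusted p = 0.552, edgeR). It was 60.1, 63.2 and 63.3 CPM in APP/PS1 and 62.1, 72.3 and 63.7 CPM in APP/PS1/Sirt3-/-, which overlap, with a fold change of 1.06 (95% interval 0.936 to 1.21). The 72.3 CPM belonged to APP/PS1/Sirt3-/- replicate 2, with Sirt3 at 0.211 CPM. Replicates 1 and 4, at 62.1 and 63.7 CPM, held Sirt3 at 28.6 and 27.7 CPM. Sirt3-/- replicate 2, with Sirt3 at 0.467 CPM, had Ric8a at 60.6 CPM, so not every library without Sirt3 was high. The part of the Sirt3 level in these values was not tested. The 12 tested genes of the list of Ric8b and G protein alpha subunits held no call in either comparison by edgeR (2 and 1 had an unadjusted p under 0.05). Ric8b, the paralog that serves the stimulatory alpha subunits, had a log2 fold change of 0.42 (SE 0.08) in the average, with an adjusted p of 0.0582 (edgeR). Gnal, the stimulatory alpha subunit of striatal and olfactory neurons, was at 0.78 (SE 0.18, adjusted p = 0.148, edgeR). The striatal markers given above were also higher in Sirt3-/- than in WT, and their part in these values was not tested. Gnas and Gnaq were at 0.16 and -0.07.

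Bet1l, the member next after Ric8a, was 22.8, 27.4 and 25.6 CPM in WT and 27.0, 23.2 and 28.7 CPM in Sirt3-/-. The groups overlap, and the fold change was 1.04 (95% interval 0.890 to 1.22, adjusted p = 0.862, edgeR). It was 27.3, 24.8 and 28.8 CPM in APP/PS1 and 21.8, 26.1 and 24.2 CPM in APP/PS1/Sirt3-/-, a fold change of 0.891 (95% interval 0.763 to 1.04). These groups overlap too. Of the 11 further SNARE genes of the Golgi, none was called in either comparison by edgeR (1 and 0 had an unadjusted p under 0.05), and the medians were 0.03 and 0.0001. Vti1b, Vamp4, Gosr2 and Bet1 had the smallest p in the average, with log2 fold changes of 0.13, 0.07, 0.06 and 0.11.

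The 4 members of the cluster 179 kb to 278 kb from Sirt3 were not called in any of the 6 contrasts by edgeR, or in Pkp3's case not tested. B4galnt4 was 131.2, 105.2 and 115.8 CPM in WT and 117.3, 107.1 and 121.0 CPM in Sirt3-/-, which overlap, and its fold change was 0.981 (95% interval 0.863 to 1.11). It was 107.8, 107.2 and 108.8 CPM in APP/PS1 and 99.4, 97.8 and 114.3 CPM in APP/PS1/Sirt3-/-, a fold change of 0.962 (95% interval 0.846 to 1.09). The 8 tested transferases of the same and related reactions held no call in either comparison by edgeR (1 and 0 had an unadjusted p under 0.05). B4galnt3, its closest relative in activity, was at a log2 fold change of -0.51 (SE 0.28) in the average, and B4galt3, B4galt2 and B4galnt1, the last a ganglioside synthase, were at -0.12, -0.12 and -0.06.

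Rnh1 was 32.8, 38.5 and 37.3 CPM in WT and 33.2, 36.8 and 36.2 CPM in Sirt3-/-. These groups overlap, and the fold change was 0.977 (95% interval 0.858 to 1.11, adjusted p = 0.908, edgeR). In APP/PS1 it was 41.5, 40.6 and 43.4 CPM, above all WT libraries, and in APP/PS1/Sirt3-/- 45.5, 40.5 and 37.5 CPM, so the 2 groups with the transgenes overlap. Between APP/PS1 and WT the fold change was 1.16 (95% interval 1.02 to 1.31), but the adjusted p was 0.248 (edgeR). With markers of brain regions as covariates the log2 fold change of Rnh1 was -0.03 in this comparison and -0.04 in APP/PS1/Sirt3-/- against WT. The thalamic and the cortical markers given above each separate APP/PS1 from WT without overlap. Markers that separate the groups cannot be told apart from genotype in that fit, and their part in the Rnh1 values was not tested otherwise. Of the 7 ribonuclease genes of the family that RNH1 binds, 3 were tested and none was called in either comparison by edgeR (0 and 0 had an unadjusted p under 0.05). Rnase4, Rnase1 and Ang, which encodes angiogenin, had log2 fold changes of -0.15, -0.45 and 0.09 in the average, the second with an SE of 0.34.

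Sigirr was 1.37, 2.19 and 1.71 CPM in WT and 1.43, 1.81 and 1.52 CPM in Sirt3-/-, from 84 and 78 reads a group. At this depth the 95% interval of the fold change ran from 0.597 to 1.38, so a change within these bounds is not excluded. It was 1.77, 2.96 and 2.17 CPM in APP/PS1 and 1.96, 2.80 and 2.14 CPM in APP/PS1/Sirt3-/-, a fold change of 1.01 (95% interval 0.680 to 1.49). Pkp3 ran from 0 CPM in WT replicate 1 to 0.515 CPM in APP/PS1 replicate 2, with 6, 8, 17 and 12 reads in WT, Sirt3-/-, APP/PS1 and APP/PS1/Sirt3-/-. In each group the replicate 2 library was the highest for both Sigirr and Pkp3. The 6 epithelial and keratinocyte markers, 3 of which were tested, summed to 13.96, 12.84, 9.521 and 6.912 CPM in these 4 libraries (WT, Sirt3-/-, APP/PS1, APP/PS1/Sirt3-/-), the highest of the group in all but APP/PS1/Sirt3-/-, where replicate 1 was at 6.928 CPM, and their part in the values was not tested. Among the 18 tested genes of the interleukin 1 and Toll-like receptor families none was called in either comparison by edgeR (1 and 0 had an unadjusted p under 0.05), and the medians were -0.08 and 0.02. Irak2, a signalling protein of that pathway, had the smallest p in the average (log2 fold change 0.23, SE 0.08, adjusted p = 0.248, edgeR), followed by Tlr9, Il1rapl1 and Il1rapl2 at -0.24, 0.13 and -0.19. Among the 13 tested plakophilin and desmosome genes there was no call by edgeR either, and the medians were -0.08 and -0.13. In edgeR 0 and 4 of them had an unadjusted p under 0.05, the 4 all lower, beside 13.5% and 4.86% of all genes. Dsc3, Ctnnd1, Dsc2 and Dsp led that list in the average, at -1.55 (SE 0.50), -0.22, 0.79 and -1.14.

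**Figure D3:**
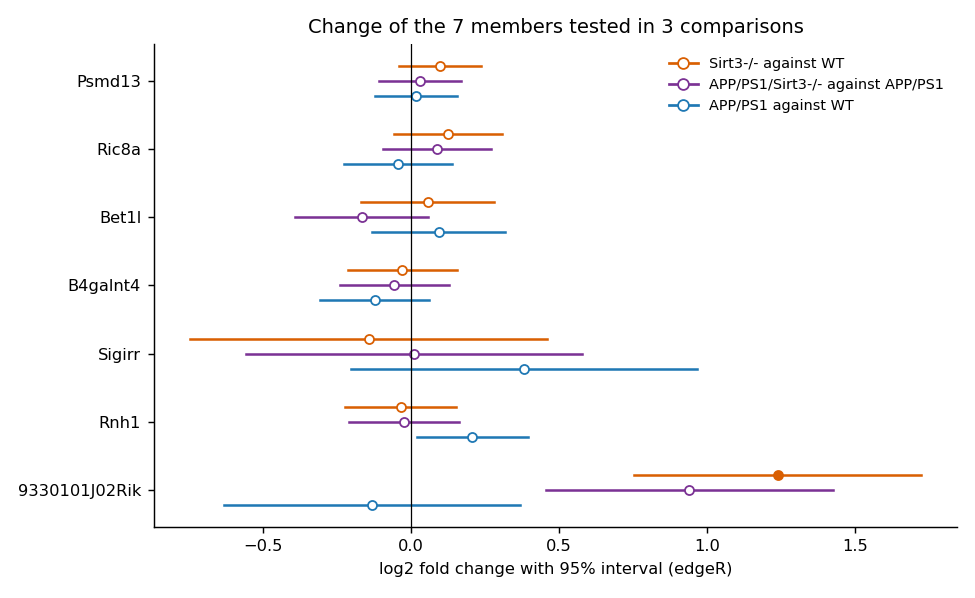
log2 fold changes of the 7 members tested (points) with 95% intervals (lines) in the Sirt3-/- to WT, APP/PS1/Sirt3-/- to APP/PS1 and APP/PS1 to WT comparisons. A filled point passed an adjusted p of 0.05 in edgeR, which only 9330101J02Rik did, at 1.24 in Sirt3-/- against WT.

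9330101J02Rik was the member that differed. It was 5.02, 5.91 and 6.16 CPM in WT and 11.7, 17.7 and 10.9 CPM in Sirt3-/-. The 2 groups do not overlap, and the lowest Sirt3-/- library was well above the highest WT library. It rose 2.36-fold (95% interval 1.69 to 3.30, log2 fold change 1.24, SE 0.23, adjusted p = 0.0400, edgeR), rank 36 of all genes tested by p. It was 5.51, 5.40 and 4.68 CPM in APP/PS1 and 8.37, 13.5 and 8.04 CPM in APP/PS1/Sirt3-/-. These groups do not overlap either, which holds in this direction for 5.7% of all genes. The log2 fold change was 0.94 (SE 0.23, fold 1.92, 95% interval 1.37 to 2.69), with an unadjusted p of 0.00102 and an adjusted p of 0.974 in edgeR. Averaged over both backgrounds, 9330101J02Rik rose by a log2 fold change of 1.09 (SE 0.16, adjusted p = 0.0202, edgeR), rank 8 of all genes. The interaction test of these 2 effects did not pass the threshold (log2 difference -0.30, 95% interval -0.98 to 0.39, adjusted p = 0.903, edgeR), an interval that leaves room for a sizeable difference. Its sign and size depend on the libraries: it was 0.13 without APP/PS1/Sirt3-/- replicates 1 and 4, 0.06 without these and APP/PS1 replicate 4, -0.58 without APP/PS1/Sirt3-/- replicate 2 and -0.04 without Sirt3-/- replicate 2.

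The call of 9330101J02Rik in Sirt3-/- against WT lies close to the threshold and depends on single libraries, while the direction was kept throughout. The log2 fold change of 1.24 fell to 0.99 without Sirt3-/- replicate 2. With markers of brain regions as covariates it was 1.38. Over 24 alternatives the log2 fold change stayed between 0.99 and 1.38, 14 of them passed the threshold, and the adjusted p ran from 2.84e-05 to 0.950. In edgeR the adjusted p was 0.158, 0.171 and 0.119 without WT replicate 1, 2 or 4, 0.0533, 0.0700 and 0.0634 without APP/PS1 replicate 1, 2 or 4, 0.119 without Sirt3-/- replicate 2 and 0.0591 without APP/PS1/Sirt3-/- replicate 1. It was 0.950 with markers of brain regions as covariates, a fit that called 0 of all genes in that comparison, and 0.0930 with motile cilia genes as a covariate. It was 1.46e-04 with DESeq2, 0.0155 without APP/PS1/Sirt3-/- replicates 1 and 4, and 0.0269 without these and APP/PS1 replicate 4. In the average over both backgrounds, 16 of 22 alternatives passed the threshold, and the adjusted p in edgeR was 0.0632 without WT replicate 1 and 0.0632 without WT replicate 2, 0.0964 and 0.0993 without APP/PS1 replicate 2 or 4, and 0.282 and 0.0761 with region or cilia covariates.

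Within the APP/PS1/Sirt3-/- label, 9330101J02Rik was highest in the library with the least Sirt3. Replicates 1 and 4, with Sirt3 at 45.4% and 44.0% of the WT mean, had 9330101J02Rik at 146.9% and 141.1% of its WT mean, and replicate 2, with Sirt3 at 0.335%, had it at 237%. The 3 Sirt3-/- libraries, with Sirt3 under 1%, had it at 204.6%, 311.4% and 191.1%. The 6 WT and APP/PS1 libraries were at 82.1% to 108.1%. APP/PS1/Sirt3-/- replicate 2 was also highest of its group for the summed motile cilia genes described below, at 62.2 CPM beside 56.6 and 52.4 CPM. Of the Sirt3-/- libraries, replicate 2, at 311.4%, held the most Sirt3 (0.742%) and the most reads of cilia genes (69.7 CPM). The part of the cilia genes in this order of 9330101J02Rik was not tested. These are descriptions of single libraries, whose Sirt3 levels fall into separate clusters, so no correlation is given. Without APP/PS1/Sirt3-/- replicates 1 and 4, the log2 fold change against APP/PS1 was 1.37 (adjusted p = 0.151, edgeR) in place of 0.94, with a lone library in that group that was assumed to vary like the others.

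**Figure D4:**
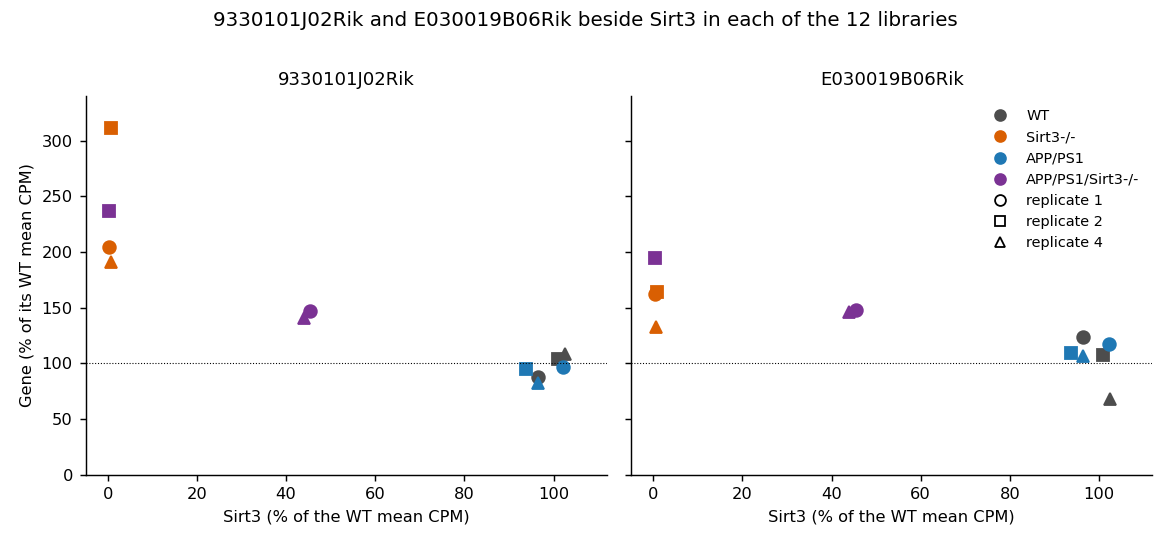
9330101J02Rik (left) and E030019B06Rik (right) against Sirt3 in each library, all as percent of the WT mean CPM (colours: groups, symbols: replicates, dotted line: 100%). The APP/PS1/Sirt3-/- libraries with Sirt3 at 44.0% and 45.4% lie, on the left, between the libraries with Sirt3 near 0, at 191.1% to 311.4%, and those with Sirt3 near 100%, at 82.1% to 108.1%. On the right they do not, at 146.4% and 147.7% for E030019B06Rik, above Sirt3-/- replicate 4 at 132.4%.

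The deposited table holds a second entry from the same present-day gene. E030019B06Rik (ENSMUSG00000070357, minus strand, chr7:139600951-139616329) covers the distant end of Cfap46 and 9330101J02Rik its start, and RefSeq lists both names as synonyms of Cfap46. E030019B06Rik was 4.51, 3.92 and 2.48 CPM in WT and 5.89, 5.95 and 4.81 CPM in Sirt3-/-. The groups do not overlap, at a log2 fold change of 0.61 (SE 0.21, adjusted p = 0.241, edgeR). It was 4.28, 3.99 and 3.88 CPM in APP/PS1 and 5.37, 7.07 and 5.32 CPM in APP/PS1/Sirt3-/-, again without overlap, at 0.55 (SE 0.21). In the average it was at 0.58 (SE 0.15), with an adjusted p of 0.148 in edgeR and 0.0392 in DESeq2. The difference between the 2 entries in size was not tested.

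Because Cfap46 is named for cilia, 12 genes of motile cilia and ependyma, a list chosen after values of these data were seen, were measured beside it. 11 were tested and none was called by edgeR in the average (5 had an unadjusted p under 0.05, beside 12.3% of all genes). Their median log2 fold change was 0.39 in Sirt3-/- against WT, 0.32 in APP/PS1/Sirt3-/- against APP/PS1 and 0.34 in the average, beside 0.0007 over all genes in the last. Dnah12 and Hydin, of the ciliary axoneme, were each at 0.82 (SE 0.25 and 0.32) in the average, Tmem212 at 0.73 and Ccdc153 at 0.38. Others of the list were lower, with Tekt1 at -0.11 (SE 0.25), Dnah9 at -0.08 (SE 0.23) and Dnah5 at 0.005 (SE 0.20). Foxj1, the master regulator of motile cilia, was at 0.14 (SE 0.13). Summed, the 12 genes were 37.7 to 52.0 CPM in WT and 35.4 to 69.7 CPM in Sirt3-/-, which overlap, and 45.7 to 51.5 CPM in APP/PS1 and 52.4 to 62.2 CPM in APP/PS1/Sirt3-/-, which do not overlap, with none at 0 in any library. With the mean of these genes as a covariate, an alternative added after the data were seen, the log2 fold change of 9330101J02Rik was 1.09 in Sirt3-/- against WT and was no longer called (adjusted p = 0.0930, edgeR).

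Distance from Sirt3 was then examined over all genes of the region. Leaving out Sirt3, 57 genes tested lay within 1 Mb, and edgeR called none of them in Sirt3-/- against WT, although 7 (12.3%) had an unadjusted p under 0.05, beside 13.5% of all genes. Within 5 Mb, 1 of 113 genes was called, and within 20 Mb 1 of 293, in both cases 9330101J02Rik, with an unadjusted p under 0.05 for 20 genes (17.7%) and 41 genes (14%). The median size of the log2 fold change was 0.14 within 1 Mb, 0.15 within 5 Mb, 0.13 in the rest of chromosome 7 and 0.13 on other chromosomes. In APP/PS1/Sirt3-/- against APP/PS1 none was called within 20 Mb by edgeR (19 of 293, 6.48%, had an unadjusted p under 0.05, beside 4.86% of all genes), and the median size was 0.09 within 1 Mb and 0.10 on other chromosomes. Comparing APP/PS1/Sirt3-/- with WT, 5 of 293 genes within 20 Mb were called (1.71%, beside 1.11% on other chromosomes), none of them a member.

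**Figure D5:**
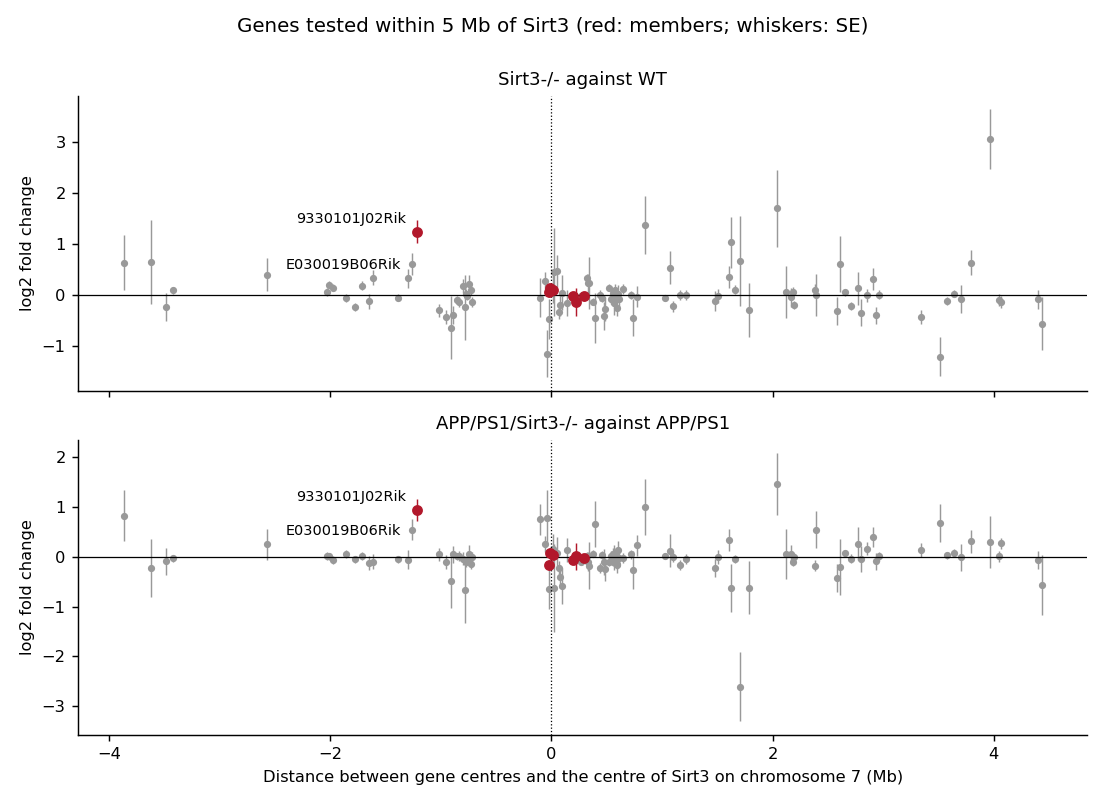
log2 fold changes (points) with SE (whiskers) of the genes tested within 5 Mb of Sirt3, by distance between gene centres in Mb, for Sirt3-/- against WT (top) and APP/PS1/Sirt3-/- against APP/PS1 (bottom), members in red. The 6 members tested nearest Sirt3 lie near a log2 fold change of 0, and 9330101J02Rik is at 1.24 and 0.94. Other genes drawn lie farther from 0, among them Fgf3 at 3.06 (top), H19 at -2.61 (bottom) and Muc2 at 1.38 and 1.01. edgeR called none of these others in the 2 comparisons drawn.

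1 gene within 1 Mb passed the test in any contrast. Cyp2e1, a cytochrome P450 that oxidises ethanol and fatty acids, lies 0.0887 Mb from Sirt3 on the side of Bet1l. It was 0.742, 1.06 and 0.889 CPM in WT, 1.12, 0.701 and 0.760 CPM in Sirt3-/-, 2.30, 1.87 and 1.71 CPM in APP/PS1 and 3.18, 1.95 and 4.86 CPM in APP/PS1/Sirt3-/-. Both groups with the transgenes lay above both groups without them. It rose in APP/PS1/Sirt3-/- against WT (log2 fold change 1.88, SE 0.34, adjusted p = 0.0317, edgeR), and was at 1.13 (SE 0.35, adjusted p = 0.161, edgeR) in APP/PS1 against WT and at -0.06 (SE 0.38) in Sirt3-/- against WT. 14 of 23 alternatives kept the call. It was lost with markers of brain regions (adjusted p = 0.508, edgeR) or motile cilia genes (0.0711) as covariates. In edgeR the adjusted p was 0.0902, 0.114 and 0.132 without WT replicate 1, 2 or 4, 0.0511 without APP/PS1 replicate 2 and 0.124 without APP/PS1/Sirt3-/- replicate 1. Without APP/PS1/Sirt3-/- replicates 1 and 4, which hold Sirt3 reads, the log2 fold change was 1.11 (adjusted p = 0.185, edgeR), and without these and APP/PS1 replicate 4 the adjusted p was 0.219. APP/PS1 replicate 4, whose App level was near WT, had Cyp2e1 at 1.71 CPM.

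The effect of the transgenes on the members was compared in APP/PS1 against WT, which shares its WT libraries with the comparisons above. edgeR called 0 members, as it did 0% of all genes. That background is unstable: edgeR called 584 genes without Sirt3-/- replicate 2, 259 without APP/PS1/Sirt3-/- replicate 4, 111 without Sirt3-/- replicate 1 and 1089 with only these 2 groups fitted. 1 member, Rnh1, had an unadjusted p under 0.05, beside 17% of all genes, and DESeq2 called 0 members and 3.07% of all genes. 2 members, Rnh1 and Ric8a, did not overlap between these groups, beside 27.9% of all genes. The members' log2 fold changes ran from -0.13 (9330101J02Rik) to 0.38 (Sigirr). Comparing APP/PS1/Sirt3-/- with WT, edgeR called 0 members, and 1, 9330101J02Rik, had an unadjusted p under 0.05, beside 20.1% of all genes. 2 members, Psmd13 and 9330101J02Rik, did not overlap between these groups, beside 25.5% of genes. Its log2 fold change there was 0.81 (SE 0.23, adjusted p = 0.0813, edgeR), and DESeq2 called it (adjusted p = 0.0231, DESeq2), as it did 6.25% of all genes. B4galnt4 was at -0.18 (SE 0.09, adjusted p = 0.266, edgeR) and Rnh1 at 0.18 (SE 0.09, adjusted p = 0.252, edgeR). The interaction of Sirt3 deletion with the transgenes was called by edgeR for no member and for 0% of all genes (0 members and 6.48% of genes had an unadjusted p under 0.05), and by DESeq2 for 0.0553% of genes and no member. The member furthest from 0 after 9330101J02Rik was Bet1l, at -0.22 (95% interval -0.54 to 0.09).

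The members did not vary as 1 block across the 12 libraries. As a description, Pearson correlations of log2 CPM between pairs of members ran from -0.79 (Rnh1 with B4galnt4) to 0.64 (Rnh1 with Sigirr). The libraries differ in group, levels of region markers and depth, and the part of these in the correlations was not tested. Psmd13 and Ric8a, on either side of Sirt3, were at 0.46. For each member the 2 genes most like it among 16672 others lay on other chromosomes. These were Dctn3 and Cep19 for Psmd13 (0.93 and 0.92), Mtmr6 and Dnaja2 for Ric8a (0.88 and 0.87), and Pkmyt1 and Kcmf1 for Bet1l (0.87 and 0.84). Rnh1 was most like Phlda3 and Cutal (0.93 and 0.92), Sigirr most like Stx16 and Pkp4 (0.92 and 0.89), and B4galnt4 most like Flrt1 and Lphn1 (0.95 and 0.93). 9330101J02Rik was most like Gphn and Ubr1 (0.92 and 0.91).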

How the data were processed

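Sequencing libraries were made with oligo-dT selection and the NEBNext Ultra RNA kit. Adaptors and poor reads were trimmed by the authors, who then used TopHat for alignment to mm10 (GRCm38) with 2 mismatches at most. The sources used here do not name the counter, annotation or strand setting. The authors deposited raw read counts and FPKM per gene and library in a single table, with gene length among the other columns. Their own fold changes, p-values and group means, also in the table, were not used. The members, gene lists and tests were chosen with earlier results of these data known.

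Counts of 12 libraries in 4 groups were fitted together in edgeR 4.0.16 (R 4.3.3), with filterByExpr, TMM scaling, a robust quasi-likelihood fit and Benjamini-Hochberg adjustment over all 16673 genes tested, at a threshold of 0.05 in 6 contrasts. Intervals at 95% used the standard error and degrees of freedom of that fit. CPM are counts over TMM-scaled library sizes, and correlations used log2 CPM with a prior count of 2. Alternatives were DESeq2 1.42.0, RLE scaling, other filters, fits on 2 groups, a replicate block, libraries left out, and covariates for sex, brain regions and cilia genes. Named genes were the members, Sirt3 and App, and up to 4 genes of each list with the smallest adjusted p in the average contrast. Genes within 1 Mb of Sirt3 that passed the test in any contrast, and the 2 genes most like each member, were also named. Foxj1, Tekt1, Dnah9, Dnah5 and E030019B06Rik were named after their values were seen. Scripts were tested on simulated data. Figures were drawn with matplotlib 3.10.9. Promoter windows came from RefSeq, and gene names from the deposited table and RefSeq.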

Additional observations from a re-analysis of the deposited data

How the results depend on the processing

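Counts of members called in Sirt3-/- against WT and in the average over both backgrounds were 1 as reported and 0 with markers of brain regions or motile cilia genes as covariates; in both comparisons they ran from 0 to 1 over the fits that leave out a single library. In APP/PS1/Sirt3-/- against WT the count was 0 as reported, 1 with DESeq2 on all 12 libraries or on only the 2 groups compared, 1 without the 2 libraries of that group with Sirt3 reads, and 0 to 1 over single libraries left out. The member concerned was 9330101J02Rik in each case. Counts in the other 3 contrasts were 0 under every alternative run. Over 980 log2 fold changes of members under alternatives, 902 kept direction and call, 57 changed sign without a call, 5 gained a call, 16 lost one and 0 reversed. The labels give no shared batch for a replicate number, and not every same-number pair correlated over 0.1 (9 of 18 did, median 0.0996, against 5 of 36 pairs with different numbers, median -0.0454), so the numbers were not taken to pair the libraries. The number does track the Y-linked reads of replicate 4, and 5 of the 6 replicate 4 pairs were over 0.1. A fit with the replicate block gave 1 member called in Sirt3-/- against WT and 1 in the average, and 0 in the others, with 18 and 14 genes called overall in place of 49 and 37. Leaving out 1 library moved the count over all genes in Sirt3-/- against WT between 2 and 116, in APP/PS1/Sirt3-/- against WT between 2 and 1172 and in APP/PS1 against WT between 0 and 584; the cause was not tested. Depth limits Sigirr and Pkp3, with 403 and 43 reads in all libraries.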
